A study of Mus musculus with 2 samples.

Results

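Saa3, Lcn2, Slpi and Hp are secreted-protein genes of the acute-phase response, the rapid change in secreted proteins that follows infection, injury or tumor-borne inflammation. Most acute-phase proteins of plasma are made in the liver under interleukin-6 and interleukin-1, but these 4 genes are also transcribed by leukocytes and stroma in inflamed tissue. Saa3 encodes serum amyloid A3, a lipid-binding protein made by activated macrophages, fat cells and epithelium. Lcn2 encodes lipocalin-2, a protein of neutrophil granules that binds bacterial siderophores and so withholds iron. Slpi encodes the secretory leukocyte protease inhibitor, which blocks neutrophil elastase and cathepsin G. Hp encodes haptoglobin, which binds free haemoglobin so that CD163-bearing macrophages can clear it.

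The 4 genes are 4 of the 32285 mouse genes of the table and were taken by symbol. They were chosen on these same data, by their lower level after anti-CD3L1 in the marker-gated classes and in the 2 libraries as wholes, so all levels and ratios below are a description with no test.

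The samples came from female nude mice, 4 weeks old at the start, a strain that lacks a thymus and so most T cells but keeps granulocytes, monocytes, macrophages and NK cells. All of the mice carried tumors grown under the skin of the right flank from 143B cells, an established line of human osteosarcoma. One group received a human IgG1 isotype control antibody and the other anti-CD3L1, each at 10 mg/kg in 4 doses given 3 days apart. CD45-positive cells were taken with magnetic beads from a set of 3 tumors per group, and each set gave 1 droplet library, in which the tumor of origin of a cell is not recorded. With 1 library per group, the difference between libraries has no replicate check, and antibody, tumor set and library preparation cannot be told apart. Intervals cover counting error only.

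The deposited tables count UMIs, unique molecular identifiers that each mark 1 captured RNA molecule. The control library kept 8557 barcodes with a median of 5526 UMIs, and the anti-CD3L1 library kept 11269 with a median of 8267. The median share of mitochondrial UMIs was 0.350% in the control library and 1.40% in the anti-CD3L1 library. Ptprc, which encodes CD45, stood at 1035 and 789.3 UMIs per 1000000 (CPM), while the T cell gene Cd3e stood at 0.327 and 0.470 CPM. RNA of CD45 was thus present in both and that of T cells near 0. Between them 26 barcodes were kept in both libraries.

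Cells were sorted into classes by their marker UMIs, and the classes are called neutrophil-like and so on because the names rest on these markers alone. Neutrophil-like barcodes made up 5976 of the control library (69.8%) and 633 of the anti-CD3L1 library (5.62%), monocyte-like 1060 (12.4%) and 2279 (20.2%), macrophage-like 597 (6.98%) and 4720 (41.9%), and NK-like 153 (1.79%) and 904 (8.02%). The monocyte-like border was the least sharp, with 704 control and 1364 anti-CD3L1 barcodes within 20% of its threshold. Neutrophil-like barcodes were also shallower after anti-CD3L1, with a median of 2209 UMIs against 4575. Droplets without a cell, called empty droplets here, were the 45000 barcodes per library ranked 45000 to 90000 by UMIs, and hold RNA that is free in the suspension.

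The start regions of the genes are shown first because C/EBP factors, NF-kB and STAT3 are the textbook regulators of acute-phase promoters. Any part of these factors in the differences between libraries was not tested. In GRCm38 with the GENCODE M21 annotation, Saa3 (ENSMUSG00000040026) lies at chr7:46711998-46715700, Lcn2 (ENSMUSG00000026822) at chr2:32384633-32388252, Slpi (ENSMUSG00000017002) at chr2:164354070-164389095 and Hp (ENSMUSG00000031722) at chr8:109575128-109579172, all on the minus strand. Of the 4 symbols, 3 (Saa3, Lcn2 and Slpi) matched an entry of the RefSeq promoter table, which is built on GRCm38.p6, and Hp did not. The windows cover up to 250 bases before the RefSeq start, printed 5′ to 3′ on the gene's own strand, with bases inside an annotated 5′ untranslated region left out. Saa3 is chr7:46715701-46715926, Lcn2 is chr2:32387798-32387989 and Slpi is chr2:164356508-164356757. The windows of Lcn2 and Slpi lie within the annotated spans of those genes. Capitals mark the letters TTGCNNAA, a C/EBP half-site pattern, on either strand.
Saa3: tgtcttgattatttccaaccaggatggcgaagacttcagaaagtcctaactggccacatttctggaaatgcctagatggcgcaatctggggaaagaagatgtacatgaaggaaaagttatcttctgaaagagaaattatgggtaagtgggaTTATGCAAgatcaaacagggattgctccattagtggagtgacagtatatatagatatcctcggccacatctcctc
Lcn2: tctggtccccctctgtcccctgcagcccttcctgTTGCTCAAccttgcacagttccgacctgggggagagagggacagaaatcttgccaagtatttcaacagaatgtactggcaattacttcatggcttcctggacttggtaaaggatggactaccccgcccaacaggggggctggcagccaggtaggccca
Slpi: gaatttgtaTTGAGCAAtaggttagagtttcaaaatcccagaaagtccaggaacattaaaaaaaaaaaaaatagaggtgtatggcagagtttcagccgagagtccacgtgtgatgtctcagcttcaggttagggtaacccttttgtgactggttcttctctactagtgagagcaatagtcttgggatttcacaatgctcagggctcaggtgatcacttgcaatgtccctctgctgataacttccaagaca
Each of the 3 windows held 1 match, TTATGCAA at 99 bases before the start of Saa3, TTGCTCAA at 216 before Lcn2 and TTGAGCAA at 241 before Slpi. Of 32851 promoter windows in the table, 3142 (9.56%) held this pattern. The wider pattern TTNNGNAA, which overlaps it, was present 4 times in Saa3, 1 time in Lcn2 and 3 times in Slpi, and in 36.8% of all windows. The NF-kB consensus, in 3.90% of windows, and the STAT pattern TTCNNNGAA, in 7.02%, had no match in the 3 printed windows. A match is a match of letters and not a measured binding site.

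Over all kept barcodes, all 4 genes were lower after anti-CD3L1. Saa3 stood at 5989 CPM (95% interval 5971 to 6008) in the control library and 73.9 CPM (72.3 to 75.7) in the anti-CD3L1 library, an 81.0-fold difference. Lcn2 stood at 4757 and 37.2 CPM, a 128-fold difference. Slpi stood at 1889 and 219.5 CPM and Hp at 928 and 107 CPM, which are 8.60-fold and 8.65-fold differences. Of 17781 genes with at least 20 UMIs over both libraries, 6.65% were at least 2-fold lower, and the median gene was higher after anti-CD3L1 by 0.72 on the log2 scale. The log2 ratios of -6.34 for Saa3, -7.00 for Lcn2, -3.10 for Slpi and -3.11 for Hp stood against that median. In such sums over a whole library, fewer cells of a type and less RNA per cell cannot be told apart, so the genes were next read within classes.

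**Figure D1:**
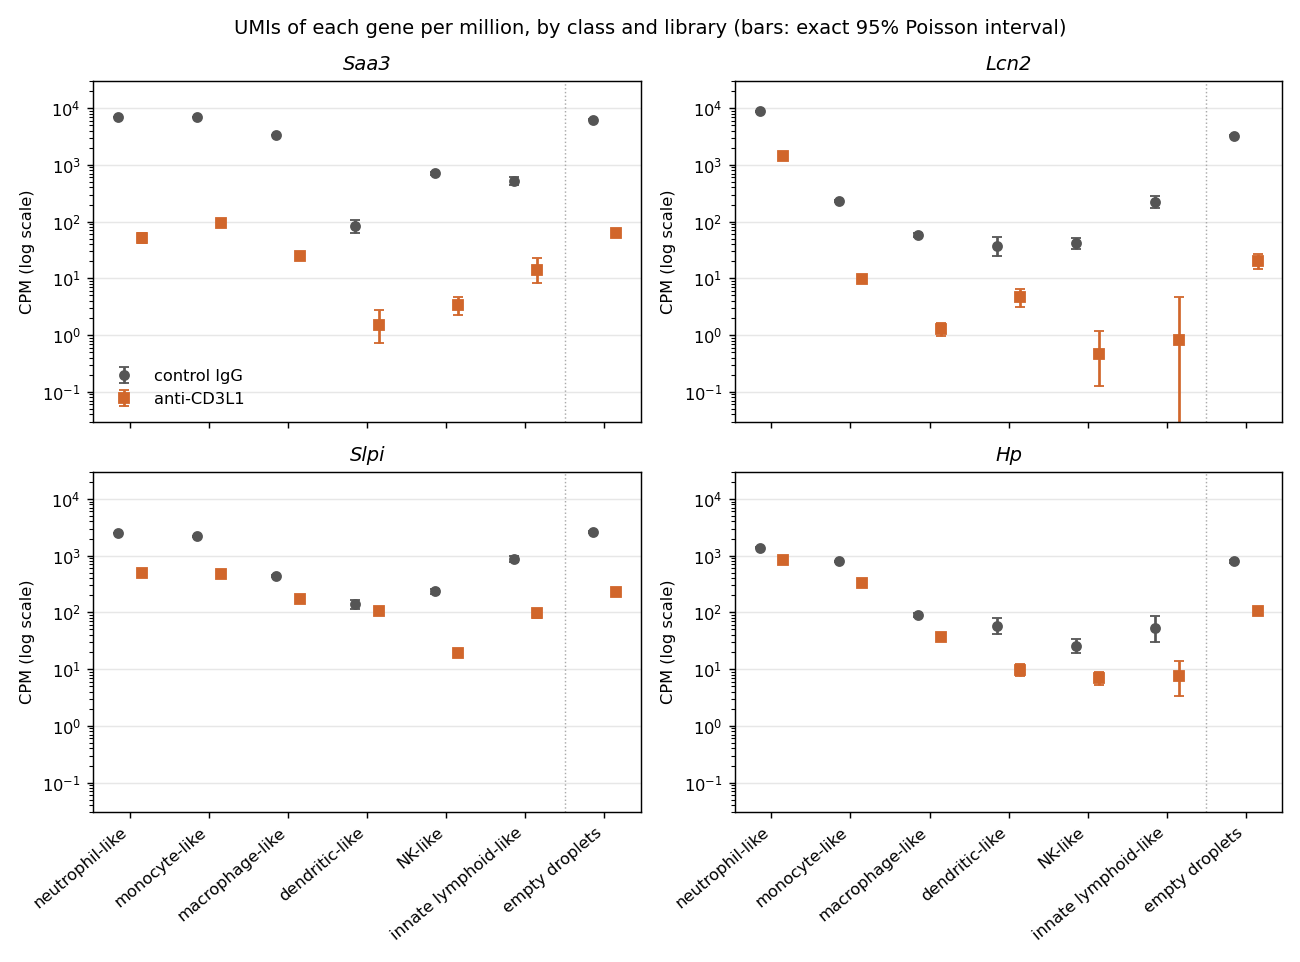
Levels of the 4 genes by cell class and library. Each point is the summed level of 1 class in 1 library in CPM on a log axis, with exact Poisson 95% intervals, and empty droplets stand beside the classes. Saa3 and Lcn2 lie lower after anti-CD3L1 in each class shown by more than 2-fold, while Hp in neutrophil-like barcodes lies at 1385 and 835 CPM.

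Saa3 was high in neutrophil-like and monocyte-like barcodes of the control library and low everywhere but in a few barcodes of the anti-CD3L1 library. In neutrophil-like barcodes it stood at 6951 CPM in the control library and at 51.4 CPM (42.2 to 61.9) after anti-CD3L1, which is 135-fold (log2 ratio -7.08, -7.36 to -6.81). Monocyte-like barcodes stood at 7056 and 94.0 CPM (log2 ratio -6.23, -6.30 to -6.16). In macrophage-like barcodes the levels were 3379 and 24.9 CPM, a log2 ratio of -7.09 (-7.17 to -7.00). The control levels of the neutrophil-like and monocyte-like classes thus differed little, and the macrophage-like level was 2.06-fold below the neutrophil-like one. Dendritic-cell-like barcodes held 63 Saa3 UMIs (83.5 CPM) in the control library and 10 UMIs (1.54 CPM) after anti-CD3L1.

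NK-like barcodes are lymphocytes in which Saa3 is not known as a product, and their summed level turned on 1 barcode. They stood at 707 CPM in the control library and 3.33 CPM after anti-CD3L1, but 1206 of the 1308 control UMIs came from 1 barcode. Without it the control level was 55.9 CPM (45.6 to 67.9) and the log2 ratio moved from -7.73 to -4.07. The same barcode set held 201 of 436 Slpi UMIs in 1 barcode, and 24 of 48 Hp UMIs in 1 barcode. Without the single highest control barcode of each gene, and with all anti-CD3L1 barcodes kept, the NK-like log2 ratio was -2.71 for Slpi. For Hp it was then -0.91, which is under 2-fold. When each library lost its own highest barcode, Hp stood at 13.2 CPM in the control library and 5.75 CPM after anti-CD3L1.

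Within the control library Saa3 was unevenly spread over cells of the same class. The median neutrophil-like barcode held 1 Saa3 UMI, and the highest, which also reached the limit of the monocyte gate, held 2363. The 10% of barcodes with the most Saa3 held 80.9% of the class's Saa3 UMIs. The same share was 67.3% in monocyte-like and 91.7% in macrophage-like barcodes. Lcn2 was spread far more evenly, with a median of 34 UMIs per neutrophil-like barcode, a highest of 760 and 36.1% of its UMIs in the top 10%. After each barcode was thinned to 1000 UMIs, 62.3% of control neutrophil-like barcodes held no Saa3 UMI and 9.94% held 20 or more, while for Lcn2 these shares were 11.5% and 10.7%. After anti-CD3L1 98.3% of neutrophil-like barcodes held no Saa3 UMI and 63.7% held no Lcn2 UMI.

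**Figure D2:**
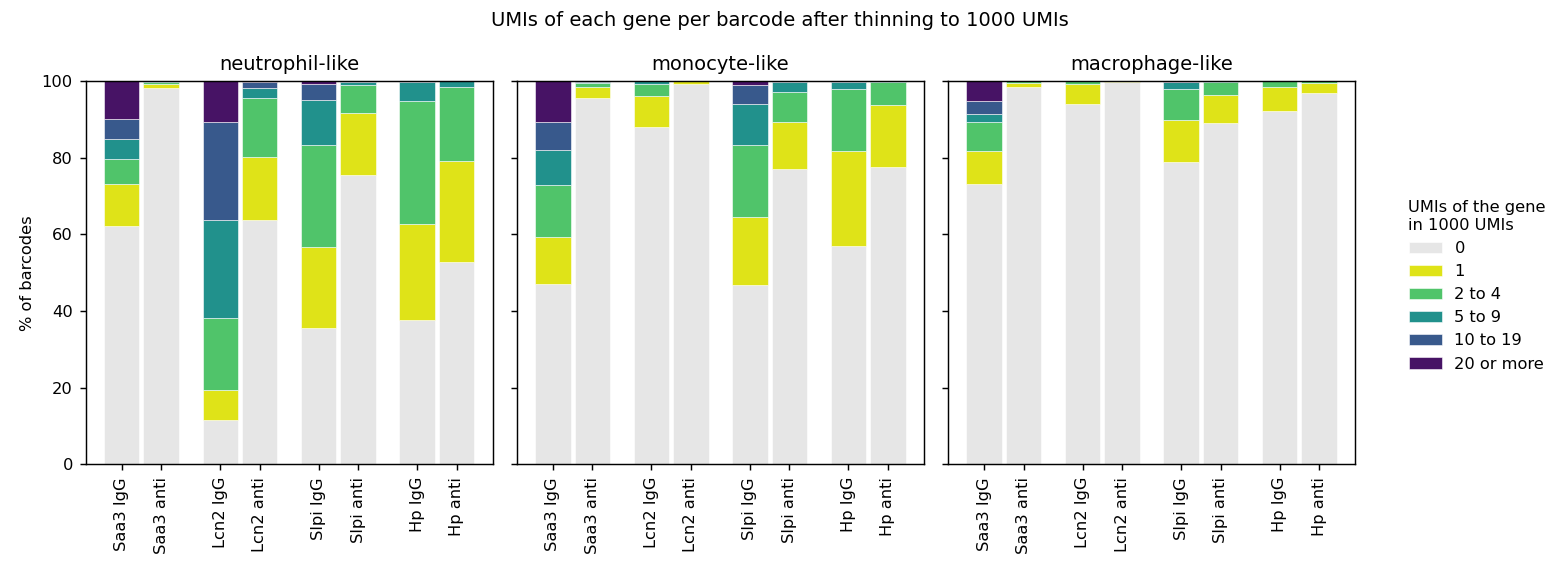
UMIs of each gene per barcode after thinning to 1000 UMIs, as stacked percent of barcodes in bands of UMIs, for 3 cell classes in the control (IgG) and anti-CD3L1 (anti) libraries. Saa3 in control neutrophil-like barcodes is at 0 UMIs in 62.3% and at 20 or more in 9.94%, whereas Lcn2 spreads across the bands.

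The Saa3 that remained after anti-CD3L1 was concentrated in few barcodes, and its largest share in 1 class was in fibroblast-like barcodes. All kept barcodes of that library held 7240 Saa3 UMIs, found in 717 barcodes (6.36%), and 1525 of these UMIs were in 1 barcode that passed both the macrophage and the fibroblast gate. Without this barcode the library's level was 58.4 CPM. The 26 fibroblast-like barcodes held 2342 UMIs, or 32.3% of the library's Saa3 with 0.485% of its UMIs, at 4933 CPM (4735 to 5137). Their median barcode held 1 UMI and the highest, which also reached the limit of the monocyte gate, held 867. Without that barcode the class level was 3315 CPM. Monocyte-like barcodes held 24.3% of the library's Saa3, macrophage-like 15.5%, neutrophil-like 1.52% and barcodes that passed several gates 23.2%. The control library had 1 fibroblast-like barcode, so the class cannot be compared between libraries.

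Lcn2 was a neutrophil transcript in both libraries. Neutrophil-like barcodes held 96.6% of all control Lcn2 UMIs while holding 52.7% of all UMIs, and in the anti-CD3L1 library they still held 84.6% of Lcn2 with 2.19% of all UMIs. Their level was 8717 CPM (8687 to 8748) in the control library and 1440 CPM (1389 to 1491) after anti-CD3L1, a log2 ratio of -2.60 (-2.65 to -2.55). After thinning to 1000 UMIs, Lcn2 was found in 88.5% of control and 36.3% of anti-CD3L1 neutrophil-like barcodes. NK-like barcodes, which should lack it, showed it in 3.27% of 153 control barcodes and in 0% of the anti-CD3L1 barcodes, at median depths before thinning of 10908 and 8674 UMIs. Elsewhere Lcn2 was low, at 231 and 9.93 CPM in monocyte-like and 57.9 and 1.29 CPM in macrophage-like barcodes.

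The neutrophil-like level of Lcn2 after anti-CD3L1 rested on very few barcodes. Camp, Ltf and Ngp are genes of secondary granules, transcribed while neutrophils mature in the bone marrow. A barcode counted as with these transcripts at 3 or more UMIs of the genes summed and at least 10 such UMIs per 10000. Those under this limit are called without the transcripts, though they could still hold some. Barcodes with these transcripts were 190 of 5976 control neutrophil-like barcodes (3.18%) and 12 of 633 after anti-CD3L1 (1.90%). The 12 barcodes held 57.6% of the class's Lcn2 UMIs, at 15098 CPM (14403 to 15817) against 13755 CPM in the 190 control barcodes. In the barcodes without the granule transcripts Lcn2 stood at 8465 CPM in the control library and 646 CPM (612 to 682) after anti-CD3L1, so that the log2 ratio moved from -2.60 to -3.71. Over the same barcodes Saa3, Slpi and Hp had log2 ratios of -7.02, -2.41 and -0.86, each close to its value in the whole class. The split was made after the values were seen.

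Slpi was shared between neutrophil-like and monocyte-like barcodes at similar levels. It stood at 2506 CPM in control and 494 CPM in anti-CD3L1 neutrophil-like barcodes, a log2 ratio of -2.34 (-2.43 to -2.26). The monocyte-like levels were 2193 and 484 CPM, a log2 ratio of -2.18 (-2.21 to -2.15). The macrophage-like levels were lower and closer together, at 433 and 174 CPM, a log2 ratio of -1.31 (-1.37 to -1.25). With classes taken from clusters in place of gates the macrophage-like log2 ratio of Slpi turned to 0.20. Dendritic-cell-like barcodes stood at 138 and 104 CPM, a log2 ratio of -0.41 (-0.71 to -0.10), which is the one class of those compared in which Slpi was under 2-fold.

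Hp was the member whose neutrophil-like level differed least between libraries. It stood at 1385 CPM in the control library and 835 CPM after anti-CD3L1, a log2 ratio of -0.73 (-0.80 to -0.66) or 1.66-fold. The monocyte-like levels were 794 and 324 CPM, a log2 ratio of -1.29 (-1.34 to -1.25). In macrophage-like barcodes it stood at 90.1 and 36.7 CPM, a log2 ratio of -1.30 (-1.42 to -1.17). With classes taken from clusters the log2 ratio of Hp was -0.83 in macrophage-like and -1.04 in neutrophil-like barcodes. The order of the control levels was neutrophil-like, monocyte-like, then macrophage-like, and the intervals of these 3 did not overlap. Of the library's Hp UMIs after anti-CD3L1, 57.8% were in monocyte-like barcodes, which held 19.1% of all its UMIs. Neutrophil-like barcodes held 17.0% of Hp there with 2.19% of all UMIs. In the control library 78.7% of Hp was in neutrophil-like barcodes, which held 52.7% of all UMIs.

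Counted by class at a 2-fold limit, 3 of the 4 genes were lower in neutrophil-like barcodes, where 3.77% of 11870 measured genes were, and the median of the 4 log2 ratios was -2.47 against 0.69 for all genes. Against that median Hp, too, stood low in the class, though it was lower by less than the neutrophil transcripts set beside the members below. The median of all genes in this class can be raised by genes at 0 after anti-CD3L1, which were set to 3 counts. In monocyte-like barcodes 4 of 4 were lower beside 2.76% of all genes, with medians of -3.36 and 0.23. In macrophage-like barcodes 4 of 4 were lower beside 4.12%, with medians of -3.40 and 0.05, and in NK-like barcodes 4 of 4 beside 2.26%, with medians of -5.05 and 0.14. Without the single control barcode highest in each gene, described above, the NK-like count was 3 of 4. With classes taken from clusters in place of gates the count was 2 of 4 in macrophage-like and 4 of 4 in neutrophil-like barcodes. The genes were chosen for these contrasts, so the counts carry no evidence of their own.

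**Figure D3:**
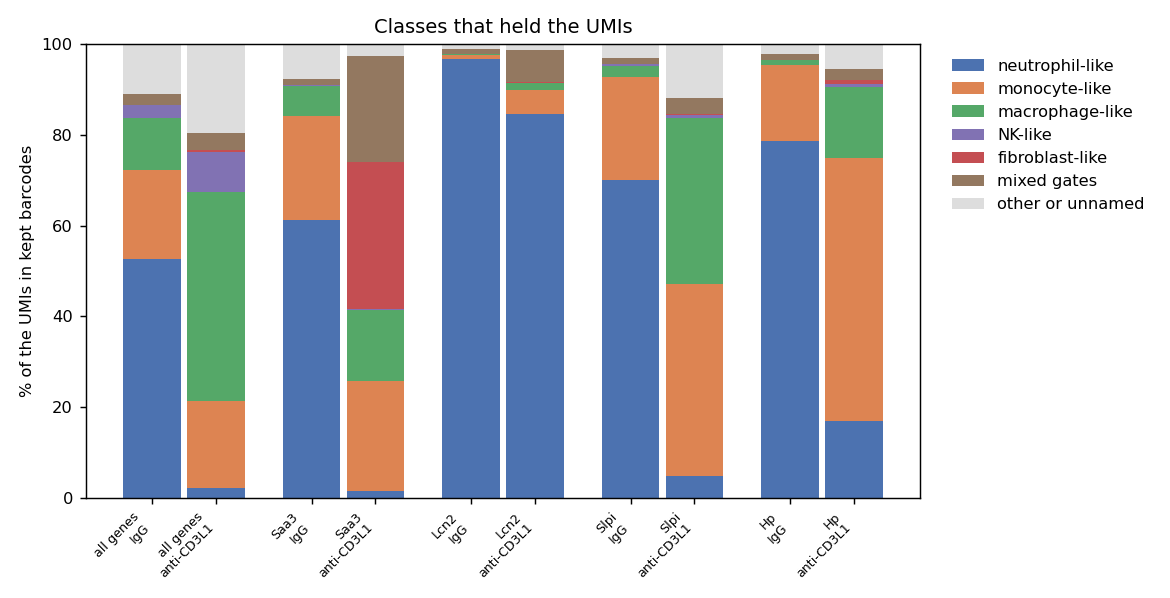
Stacked bars of the percent of each gene's UMIs held by each cell class in the control (IgG) and anti-CD3L1 libraries, with all genes at the left. Lcn2 stays with the neutrophil-like class in both libraries (96.6% and 84.6%), whereas Hp is mostly neutrophil-like in the first (78.7%) and monocyte-like in the second (57.8%), and 32.3% of the anti-CD3L1 Saa3 is fibroblast-like. The neutrophil-like class holds 52.7% and 2.19% of all UMIs.

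The class sizes and the levels within classes contributed differently to the 4 genes. Control levels were weighted by the anti-CD3L1 class sizes to show what the change in classes alone would give, and anti-CD3L1 levels by the control class sizes for the levels alone. For Saa3 the classes alone gave a log2 ratio of -0.64 and the levels alone -6.60, against -6.34 observed. For Lcn2 they gave -3.51 and -2.64 against -7.00, and for Slpi -1.21 and -2.25 against -3.10. For Hp they gave -1.78 and -0.85 against -3.11. The levels alone thus gave the larger difference for Saa3 and Slpi, and the class sizes alone for Hp. For Lcn2 the order turned on the 12 barcodes with granule transcripts: without such barcodes in either library, the classes alone gave -3.49 and the levels alone -3.75. The sums are recombinations of the same counts and share their library effects.

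**Figure D4:**
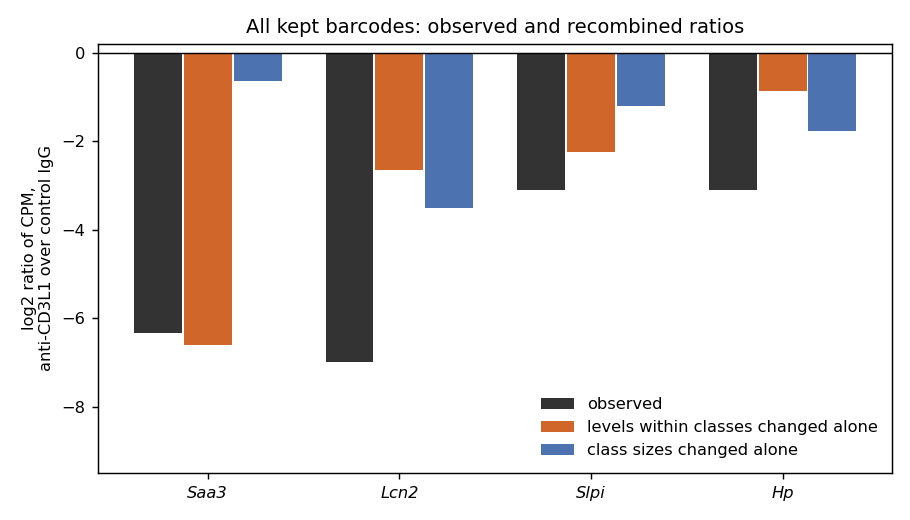
Log2 ratio of anti-CD3L1 over control for each gene as observed, with class sizes changed alone and with levels changed alone. For Saa3 the levels alone (-6.60) come close to the observed ratio (-6.34), while for Hp the class sizes alone (-1.78) give more than the levels alone (-0.85).

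Empty droplets carried the same transcripts and differed between libraries in the same direction. Saa3 stood at 6247 CPM in control and 62.3 CPM in anti-CD3L1 empty droplets, and Lcn2 at 3265 and 19.9 CPM. Slpi stood at 2599 and 229.6 CPM, and Hp at 790.5 and 104.6 CPM. The empty droplets held few UMIs each, from 25 to 43 in the control library and from 13 to 67 in the anti-CD3L1 library. Free RNA of neutrophils can reach any droplet, so the members were set beside S100a8, S100a9 and Retnlg, which are abundant neutrophil transcripts. These genes are also markers of the neutrophil gate, so barcodes rich in them were kept out of the other classes. Their ratios in those classes are thus limited by the gate, while the members were not used in gating.

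In control macrophage-like barcodes those 3 transcripts stood at 0.0128, 0.00996 and 0.0121 of their empty-droplet level, and Lcn2 at 0.0177 of its own. In NK-like barcodes Lcn2 stood at 0.0128 of its empty-droplet level beside 0.0109, 0.00849 and 0.00987. Lcn2 in these classes thus stood near the ratios of the neutrophil transcripts, and no expression by the classes was read from it. Saa3 in macrophage-like barcodes stood at 0.541 of its empty-droplet level, Slpi at 0.167 and Hp at 0.114, each above the neutrophil transcripts. Since the gate limits those transcripts and not the members, this order alone does not show expression by the class. In monocyte-like barcodes Saa3 stood at 1.13, Slpi at 0.844 and Hp at 1.0, while Lcn2 stood at 0.0706. There S100a8 stood at 0.0354, S100a9 at 0.0120 and Retnlg at 0.0131, each below Lcn2, and the same limit of the gate applies. In control neutrophil-like barcodes Saa3 stood at 1.11 of its empty-droplet level, Lcn2 at 2.67, Slpi at 0.964 and Hp at 1.75, beside S100a8 at 2.25. After anti-CD3L1 the same class stood at 0.825 for Saa3, 72.2 for Lcn2, 2.15 for Slpi and 7.98 for Hp, beside 48.8 for S100a8. Saa3 in this class was thus near its empty-droplet level in both libraries. The part of free RNA in these levels was not tested.

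The neutrophil marker list as a whole, summed over its 10 genes, stood at 1815 CPM in control monocyte-like, 1045 in macrophage-like and 718 in NK-like barcodes, against 385, 161 and 52.3 CPM after anti-CD3L1. Saa3 was therefore also read by the barcodes' own neutrophil-marker UMIs per 10000, in 4 bins of under 5, 5 to 10, 10 to 20 and 20 to 100. In control monocyte-like barcodes it stood at 5741, 3730, 7331 and 12043 CPM over these bins, with 28, 348, 425 and 259 barcodes. In anti-CD3L1 monocyte-like barcodes it stood at 67.6, 142.7, 960.7 and 113.3 CPM, with 1913, 255, 55 and 56 barcodes. The control series rose from the bin of 5 to 10 upward, with only the bin of 28 barcodes out of order. The anti-CD3L1 series did not rise steadily, and in each bin the control level was the higher. In the same control barcodes the other members rose over all 4 bins. Lcn2 went from 63.0 to 555 CPM, Slpi from 732 to 3574 CPM and Hp from 303 to 1060 CPM. In macrophage-like barcodes Saa3 stood at 3035, 2214, 4158 and 9597 CPM in the control library and at 23.6, 74.96, 66.1 and 10.8 CPM after anti-CD3L1, again higher in the control library in each bin. The anti-CD3L1 bins held 4492, 155, 45 and 28 barcodes, and those from 10 upward rested on 12 and 3 Saa3 UMIs. The interval of the bin of 20 to 100 was 2.22 to 31.5 CPM. The control series again rose from the bin of 5 to 10 upward, and the bin under 5 held 47 control macrophage-like barcodes. The part of neutrophil RNA in these levels was not tested.

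The 3 neutrophil transcripts set beside the members, S100a8, S100a9 and Retnlg, were lower in neutrophil-like barcodes after anti-CD3L1 by less than Saa3, Lcn2 and Slpi were. S100a8, an alarmin subunit that like S100a9 and Retnlg is also a marker of the gate, stood at 63918 and 24876 CPM, a log2 ratio of -1.36. S100a9 and Retnlg had log2 ratios of -1.14 and -0.87, the last under 2-fold. The 10 neutrophil markers summed stood at 168492 CPM in control and 75442 CPM in anti-CD3L1 neutrophil-like barcodes. In the same barcodes the 10 macrophage markers summed stood at 198 CPM in the control library and 938 CPM after anti-CD3L1. In empty droplets these markers stood at 4757 and 12999 CPM. The part of macrophage RNA in genes that were higher in this class was not tested. Per 1000 S100a8 UMIs of the class, Hp stood at 21.7 in the control library and 33.6 after anti-CD3L1. Saa3, Lcn2 and Slpi were lower after anti-CD3L1 on this scale too.

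Barcodes were also counted by how many of the 4 genes they held. Of control neutrophil-like barcodes thinned to 1000 UMIs, 14.7% held all 4 genes, 38.3% held 3 and 1.39% held none. After anti-CD3L1 0.173% held all 4 and 28.7% held none. Across barcodes of the control class the pairwise correlations of the thinned counts were between -0.04 and 0.18. They were between 0.20 and 0.30 in control monocyte-like and between 0.07 and 0.25 in control macrophage-like barcodes. In such sparse counts none of these values is read as a finding.

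Among relatives of Saa3, the liver-type genes Saa1 and Saa2 were detected at a small fraction of its level. Saa1, whose product is the main serum amyloid A of plasma, had 1256 UMIs (18.7 CPM) in the control library and 11 after anti-CD3L1. Saa2 had 110 UMIs and 1 UMI, Saa4 had 0 and 1, and Crp, the C-reactive protein gene, had 1 and 3. Of the 1256 Saa1 UMIs 1164 lay in neutrophil-like barcodes, and none of the 11 did. With 0 UMIs after anti-CD3L1, which allows up to 1.40 CPM, Saa1 was at least 23.4-fold lower in that class. Saa1, Saa2 and Saa3 lie in 1 cluster with Saa4 on chromosome 7 and are related in sequence, so a part of the Saa1 and Saa2 counts could be Saa3 reads placed wrongly, which was not tested.

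The wider acute-phase list did not move as one. In neutrophil-like barcodes 10 of its 22 genes could be measured (at least 20 UMIs), and 3 were at least 2-fold lower, 2 higher and 5 between. Of all genes in this class 3.77% were lower and 35.0% higher. A gene at 0 after anti-CD3L1 was set to 3 counts in this smaller class. At low control counts it could thus be called higher. In simulated counts 8.39% of unchanged genes of this class were called in 1 direction or the other. The 35.0% carries this limit wherever it is given below. The list's median was -0.73 with genes at 0 set to 3 counts, beside 0.69 for all genes. Il1rn, the interleukin-1 receptor antagonist, had the most UMIs and a log2 ratio of -0.58, and C3, the central complement component, had -0.90. The lower genes were Saa1, Steap4, a metalloreductase, at -1.76, and Orm1, with 308 UMIs and 1 UMI and a log2 ratio of -4.22 (-9.52 to -1.74). The higher genes were Cfb, complement factor B, at 1.98, and Cp, with 18 and 3 UMIs. In monocyte-like barcodes 8 genes were measured, of which 3 were lower and none higher, with a median of -0.83 beside 0.23 for all genes. Of all genes there 2.76% were lower and 11.0% higher. In macrophage-like barcodes 7 were measured, of which 2 were lower and none higher, with a median of 0.13 beside 0.05 and with 4.12% of all genes lower and 6.74% higher. These shares of all genes hold for the lists below too.

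Genes of neutrophil granules differed in both directions in the neutrophil-like class. Of 16 genes 13 were measured, 4 were at least 2-fold higher and 1 lower, beside 35.0% of all genes higher in this class, and the list's median was 0.53. The higher genes were Camp, Ltf and Ngp at 3.70, 3.38 and 2.22 and Lyz2, the lysozyme of myeloid cells, at 1.01. As given above, barcodes with Camp, Ltf and Ngp were 1.90% of the class after anti-CD3L1 (12 barcodes) and 3.18% in the control library (190). The sums of these genes can therefore rest on few barcodes and do not describe the class as a whole. The lower gene was Wfdc21, which encodes a small secreted protein of the family that Slpi belongs to, at -2.24. Pglyrp1, a peptidoglycan-binding granule protein, and Anxa1, annexin A1, had log2 ratios of -0.17 and -0.21. In monocyte-like barcodes 12 were measured, of which 4 were lower and none higher beside 11.0% of all genes higher, with a median of -0.51. In macrophage-like barcodes 12 were measured, with 3 lower, none higher and a median of -0.24.

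**Figure D5:**
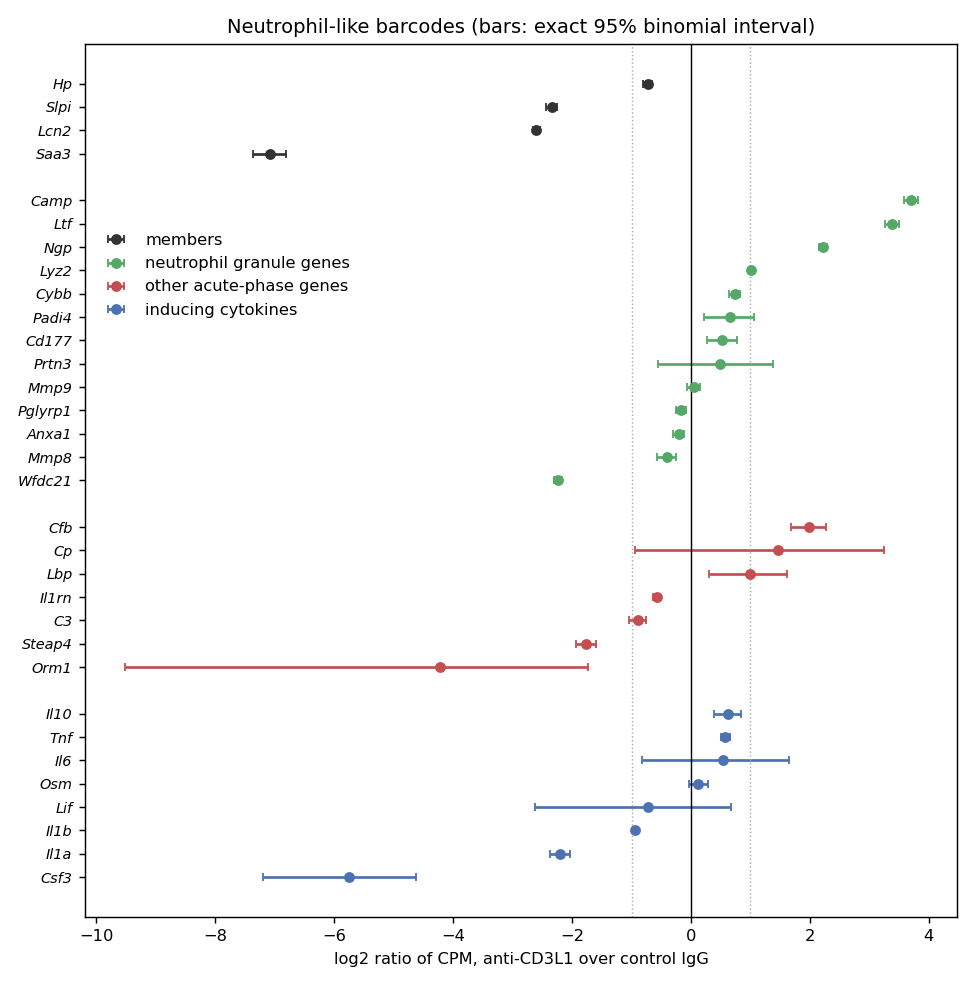
Log2 ratios of CPM, anti-CD3L1 over control, in neutrophil-like barcodes for the 4 genes and for measured genes of 3 lists with UMIs in both libraries, with exact 95% binomial intervals and dotted lines at 2-fold. Saa3 at -7.08 lies left of the other genes drawn, while Camp at 3.70 lies at the right end. Barcodes with Camp, Ltf and Ngp number 12 in the anti-CD3L1 class.

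The partners of the 4 proteins (proteases that Slpi inhibits, lipocalin and haptoglobin receptors, and receptors of serum amyloid A) also split. In neutrophil-like barcodes 12 of 17 were measured, with 3 higher and 3 lower, beside 35.0% and 3.77% of all genes, and a median of 0.23 beside 0.69. The share of higher genes was thus below that of all genes, which the setting of 0 to 3 counts can raise. The lower genes were Cd14, the lipopolysaccharide co-receptor, at -1.77 and the formyl peptide receptors Fpr1 and Fpr2, of which the latter also binds serum amyloid A, at -2.43 and -2.05. The higher genes were Grn, the progranulin that Slpi shields from elastase, at 1.26, Lrp1 at 1.43 and Scarb1 at 1.41. As given above, macrophage markers were also higher in this class after anti-CD3L1, and the part of macrophage RNA was not tested. In monocyte-like barcodes 13 were measured, with 4 lower, none higher and a median of -0.50, and Cd14, Fpr1 and Fpr2 were again among the lower genes at -1.22, -3.45 and -1.89. In macrophage-like barcodes 13 were measured, with 4 lower, none higher and a median of -0.32.

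Of the cytokines that induce acute-phase genes, 6 of 8 measured were within 2-fold in neutrophil-like and 6 of 9 in macrophage-like barcodes, but 4 of 9 in monocyte-like barcodes. In neutrophil-like barcodes 2 were lower and none higher, beside 3.77% and 35.0% of all genes, and the median was -0.30 beside 0.69. Il1b, which had the most UMIs, had a log2 ratio of -0.94 and Tnf had 0.58. The lower genes were Il1a at -2.20 and Csf3, the granulocyte colony-stimulating factor, at -5.75. In monocyte-like barcodes 9 were measured, with 3 lower, 2 higher and a median of -0.37, beside 2.76% of all genes lower and 11.0% higher. In macrophage-like barcodes 9 were measured, with 2 lower, 1 higher and a median of 0.04, beside 4.12% of all genes lower and 6.74% higher. Il6 in macrophage-like barcodes stood at 5.19 and 5.35 CPM, a log2 ratio of 0.04.

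Of the receptors of these cytokines 9 of 10 were measured in neutrophil-like barcodes, with 2 higher, a smaller share than the 35.0% of all genes, none lower and a median of 0.27 beside 0.69. Csf3r, which carries the signal of granulocyte colony-stimulating factor, had a log2 ratio of 0.10. The higher genes were Il6st, the shared signalling chain of the interleukin-6 family, at 2.75 and Il1r1 at 1.03. Of 9 measured in monocyte-like and in macrophage-like barcodes, 1 and 0 were higher and none lower, with medians of -0.30 and -0.19.

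Of the transcription factors and feedback genes of the pathway, 10 of 14 were within 2-fold in neutrophil-like barcodes. There 3 were higher and 1 lower, beside 35.0% and 3.77% of all genes, and the median was -0.11 beside 0.69. The lower gene was Cebpb, the C/EBP factor of inflammatory induction, at -1.16. The higher genes were Cebpe, Gfi1 and Cebpa, factors of granulocyte development, at 2.24, 2.05 and 1.19. These are sums over a class of 633 barcodes after anti-CD3L1 and, as for Camp, Ltf and Ngp, can rest on few of them. Nfkbia and Tnfaip3, feedback genes induced by NF-kB, had log2 ratios of -0.58 and -0.50. In monocyte-like barcodes 13 were measured, with 2 lower, Cebpb at -1.22 and Socs3, the feedback inhibitor of STAT3, at -1.23, none higher and a median of -0.08. In macrophage-like barcodes 13 were measured, with 2 lower, 1 higher and a median of -0.08. In NK-like barcodes at most 2 genes of any of the 6 lists were past 2-fold in 1 direction, beside 8.10% of all genes higher and 2.26% lower.

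The genes whose levels ran most like those of the members were found over 12 points, 6 classes in each of 2 libraries, among 5278 genes. For Lcn2 they were Wfdc21 (Pearson's r = 0.99), S100a8 (0.99), Cstdc4, Stfa2l1 and S100a9 (each 0.97), which are neutrophil transcripts. For Hp they were Trem3 (0.97), Lrg1, another acute-phase gene (0.95), Igfbp6 (0.95), Slfn1 (0.93) and Tnfrsf1b (0.92). For Slpi they were Cept1 (0.92), Crk (0.91), Sod2, Gm15283 and Fpr2 (each 0.90). For Saa3 the likeness was weaker, with Pgk1 (0.84) and Hif1a (0.83) first, followed by Aldoa, Nos2 and Hist1h4i. Between the members r ran from 0.68 for Saa3 with Hp to 0.86 for Slpi with Hp. The points share 2 libraries and their free RNA, so these values describe the pattern and nothing more.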

How the data were processed

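The authors aligned the reads with Cell Ranger 7.1.0 and deposited, for each library, UMI counts per mouse gene and barcode, not normalized and with near-empty barcodes included. The submitters' processing notes also name Seurat 5.1.0 and the build GRCm39. Coordinates and promoter sequences here come from reference tables of GRCm38. A deposited table of the authors' macrophage comparison, with log2 fold changes, shares of cells and p-values, was not used. Human tumor RNA was not analysed here.

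Barcodes with at least 500 UMIs, over 200 and under 6000 genes and under 5% mitochondrial UMIs were kept. A barcode entered 1 of 13 classes when its markers reached a set number of UMIs per 10000 (neutrophil 100, macrophage 50, monocyte 20, NK 10) with at least 3 marker UMIs. The monocyte and innate lymphoid gates were applied only to barcodes that passed no other gate. A barcode that reached the neutrophil and the monocyte limits therefore stayed neutrophil-like. Barcodes that passed several of the other gates, or both the monocyte and the innate lymphoid gate alone, were set aside as mixed. No doublet caller was run, and an alternative left out the 5% of barcodes with the most UMIs. UMIs were summed by class and given as CPM with exact Poisson 95% intervals, shares with exact binomial intervals, and log2 ratios with exact binomial intervals. A gene was called at 2-fold, among genes with at least 20 UMIs. A count of 0 was limited at 3 counts. The scripts were tested on simulated counts. Python 3.11.15, numpy 2.4.6, scipy 1.17.1, pandas 2.3.3, scikit-learn 1.9.0 and leidenalg 0.10.2 were used.

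The members and the lists (other acute-phase genes, neutrophil granule genes, partners, inducing cytokines, their receptors, and transcription factors and feedback genes) were chosen with earlier results of these data known. Text names the members, up to 4 genes of a list with the most UMIs, the 5 genes most like each member by Pearson correlation of log2(CPM + 1), and the neutrophil transcripts S100a8, S100a9 and Retnlg. Other genes of the lists, such as those named because they were past 2-fold, and genes named for small counts were picked after their values were seen. Alternatives covered barcode filters, gates, clusters in place of gates, scaling, thinning and subtraction of the NK-like level.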

Additional observations from a re-analysis of the deposited data

How the results depend on the processing

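Of 233 alternative values of log2 ratios at least 2-fold lower, 229 stayed at least 2-fold lower, with bounds set by 3 counts among them. In NK-like barcodes Hp came to -0.91 without the control barcode highest in it, and without the 10% of barcodes highest in it Hp had no value, which left 3 of 4 genes lower under each. In macrophage-like barcodes, with classes from clusters Slpi turned to 0.20 and Hp came to -0.83, which left 2 of 4 genes lower, and with the NK-like level subtracted Slpi came to -0.35. The gate and the cluster shared 264 of 597 gated control barcodes. With clusters Hp in neutrophil-like barcodes passed 2-fold at -1.04. Over all kept barcodes, leaving the 20 genes highest in empty droplets out of the total gave -6.55 for Saa3, -7.21 for Lcn2, -3.31 for Slpi and -3.32 for Hp. The mean over barcodes gave -6.79 for Saa3, -6.67 for Lcn2 and -2.97 for Hp, and thinning gave -6.77, -6.76 and -3.03. Without the 5% of barcodes with the most UMIs Saa3 was -7.31 and Lcn2 -7.21, and without shared barcodes Lcn2 was -7.06. Without the 10% of barcodes highest in each gene, Slpi was -4.17 and Hp -4.47, and with no anti-CD3L1 UMI left Saa3 and Lcn2 were at the bounds -15.24 and -16.48, set by 3 counts. Only 6.36% of anti-CD3L1 barcodes held a Saa3 UMI and 4.42% an Lcn2 UMI, so this rule had to leave 0 of them. The cause of the other shifts was not tested. The share of all genes at least 2-fold lower ran with other count filters from 6.02% to 8.89% over all barcodes, 3.07% to 3.54% in neutrophil-like, 1.97% to 5.84% in monocyte-like, 1.92% to 10.9% in macrophage-like and 0.893% to 8.96% in NK-like barcodes. The alternatives without barcodes with Camp, Ltf and Ngp and without 1 NK-like barcode were chosen after seeing the data. No paired analysis was possible because each group has 1 library and the shared number 1 was given in accession order. With 1 library per group no replicate could be left out, and depth limits low classes such as NK-like, where anti-CD3L1 Lcn2 rests on 4 UMIs.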

Other observations

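Control barcodes rich in Saa3 differed from those poor in it within the same class. The groups are the tenth of barcodes with the highest Saa3 share and the lower-ranked 50%, a rule set after the values were seen, so the differences are descriptions with no test. Among neutrophil-like barcodes 583 rich ones stood at 47689 CPM of Saa3 and 2913 poor ones at 51.7 CPM. Saa1 stood at 263 and 1.26 CPM in the same barcodes, a 208-fold difference, and Timp1, an inhibitor of metalloproteinases, was 39.6-fold higher in the rich ones. Arg1, the arginase of myeloid cells, was 9.59-fold higher. Il7r, a marker of the innate lymphoid gate, was 9.14-fold and F13a1, a marker of the monocyte gate, 8.88-fold higher. The median share of all monocyte markers was 4.12 per 10000 UMIs in rich and in poor barcodes. Of the other members, Slpi stood at 4297 and 2005 CPM and Lcn2 at 11669 and 8478 CPM, while Hp stood at 1503 and 1415 CPM. The median neutrophil-marker share was lower in the rich barcodes, at 1141 against 1901 per 10000 UMIs, and its part in these differences was not tested.

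Among monocyte-like barcodes 106 rich and 530 poor ones stood at 44163 and 157 CPM of Saa3. Nos2, the inducible nitric oxide synthase, was 18.9-fold and Arg1 6.27-fold higher in the rich ones, and Lcn2 was 7.94-fold higher. Among macrophage-like barcodes 60 rich and 297 poor ones stood at 27476 and 34.7 CPM of Saa3, and Cxcl13, a B cell chemokine, was 22.5-fold higher in the rich ones, beside Hp at 6.72-fold and Slpi at 6.29-fold. The rich macrophage-like barcodes also had a lower median macrophage-marker share, at 92.2 against 156.6 per 10000, and a higher monocyte-marker share, at 17.8 against 4.90. The rich monocyte-like barcodes had a median neutrophil-marker share of 15.4 against 11.1 per 10000. The part of these shifts was not tested.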
